A study of Homo sapiens with 27 samples.

Results

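The 10 genes described here encode transcription and splicing factors that hold cells in an epithelial state or move them out of it. They were taken by symbol, and all 10 were found among the 26255 gene symbols listed for every library. The 5 repressors are ZEB1, ZEB2, SNAI1, SNAI2 and TWIST1, and the 5 epithelial keepers are GRHL2, OVOL1, OVOL2, ESRP1 and ESRP2. RNA was measured in 27 libraries of HCT116, SW480 and DLD-1 cells, which are established human CRC cell lines, in 9 groups of 3 libraries. WT cells, labelled as the negative control, had received no drug. The 5-FU res cells had been grown in 5-fluorouracil raised step by step from 5 to 70 µM, and the OX res cells in oxaliplatin raised from 5 to 35 µM, in both cases for about 6 months. The methods of the study state at least 20 passages and describe this selection for HCT116 and SW480 only, so the DLD-1 groups rest on the sample labels alone. Each resistant group is a population that survived 1 drug in 1 line, and nothing says whether its 3 libraries came from separate cultures, so a p-value measures only how much these libraries vary, and that may be technical.

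In an epithelial-mesenchymal transition (EMT), cells joined by E-cadherin lose these contacts and take up genes of motile, matrix-producing cells. ZEB1, ZEB2, SNAI1, SNAI2 and TWIST1 are DNA-binding proteins that recognise E-box motifs, and they are best known for shutting off CDH1, the gene of E-cadherin. GRHL2, OVOL1 and OVOL2 work in the other direction: GRHL2 activates genes of cell junctions, the OVOL proteins are zinc finger repressors of mesenchymal genes, and GRHL2 and ZEB1 repress each other. ESRP1 and ESRP2 bind RNA and direct the epithelial choice of exons in transcripts such as those of CD44 and FGFR2, and both genes are known targets of ZEB1. The deposited values are per gene, so the splicing that ESRP1 and ESRP2 direct was not measured here.

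The authors deposited FPKM, fragments scaled by transcript length and mapped reads. Each value was divided by its library's FPKM sum to give TPM, each gene's share of the library's transcripts, comparable between genes, and was taken as log2(TPM + 1). The FPKM sums ran from 451767 to 804635 (median 539355), and the depth of the libraries recovered from the smallest steps of the values was 0.721 to 1.13 times that of the first HCT116 WT library. For ZEB2, SNAI2, TWIST1, GRHL2 and OVOL1 the values were whole multiples of such a step (within 0.1, up to 60 steps), which was taken as 1 read, so their reads could be given. An exact 0 can be a failed estimate, since the histone gene H3F3A was listed at 0 in 4 of the 27 libraries. Every library resembled the WT mean of its own line (r across genes of 0.955 to 0.998) more than that of any other line (0.902 to 0.928). Markers of colorectal epithelium such as EPCAM (65.6 to 898 TPM) and CDX2 (5.53 to 198 TPM) were present in all groups, whereas CDH17 and LGALS4 stayed under 1 TPM in every HCT116 and SW480 library. The 27 libraries had fibroblast markers summing to 0.546 to 18.2 TPM and leukocyte markers summing to 4.76 to 73.7 TPM.

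The motif that the repressors recognise is shown in the promoter of ZEB1, the member with the largest rise in SW480 cells and the largest among the repressors in HCT116 OX res cells. ZEB1 lies on chromosome 10 at 31607424 to 31818742 on the plus strand (GRCh37, the build of the files). RefSeq promoter windows (GRCh38.p14) were at hand for 2 members, 7 for ZEB1 and 1 for ZEB2. The 250 bases before each start were searched for CAGGTG and its reverse complement CACCTG, the E-box form bound by ZEB1, so that both strands were covered and no match could overlap another. Of the 7 ZEB1 windows, window 1 held 1 match, 57 bases before the start, window 3 held 2 matches, 242 and 85 bases before it, and the others held none. In the list that follows the matches stand in capitals and the rest of the 250 bases in lower case, 5′ to 3′, for window 1 at chr10:31318167-31318416 and window 3 at chr10:31318966-31319215 of the plus strand.
ZEB1 window 1: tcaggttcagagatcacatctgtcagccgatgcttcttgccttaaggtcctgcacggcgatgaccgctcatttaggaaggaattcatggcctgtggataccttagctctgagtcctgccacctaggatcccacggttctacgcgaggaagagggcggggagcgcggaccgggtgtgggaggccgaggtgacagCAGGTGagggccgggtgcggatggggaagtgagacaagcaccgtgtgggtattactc
ZEB1 window 3: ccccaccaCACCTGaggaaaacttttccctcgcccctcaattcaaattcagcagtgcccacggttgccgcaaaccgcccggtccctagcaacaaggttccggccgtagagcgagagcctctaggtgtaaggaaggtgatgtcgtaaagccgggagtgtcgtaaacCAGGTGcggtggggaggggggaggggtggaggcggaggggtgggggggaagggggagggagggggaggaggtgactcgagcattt
Among 35116 windows of the same length, 17.5% held at least 1 match and 2.53% at least 2, so such a match is common. The ZEB2 window held no match, which says only that these letters are not in it.

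Members changed in the resistant cells of all 3 lines, in DLD-1 with OVOL1 alone past a log2 fold change of 1, in OX res cells. Such calls were common, since 46.4% to 86.2% of all genes tested passed the limma test described below in these comparisons. ZEB1 and SNAI2 were several fold higher than in WT cells of the line in 3 groups, HCT116 OX res and both resistant groups of SW480. In HCT116 OX res cells GRHL2 and OVOL1 were nearly lost and ESRP1 fell, while HCT116 5-FU res cells had more GRHL2 and ESRP1 than WT cells and more SNAI2 as well. SW480 cells of every group, WT included, lacked GRHL2 and OVOL1, and their resistant cells had less OVOL2 and ESRP2. In bulk RNA, fewer cells that make a transcript and less transcript per cell cannot be told apart.

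**Figure D1:**
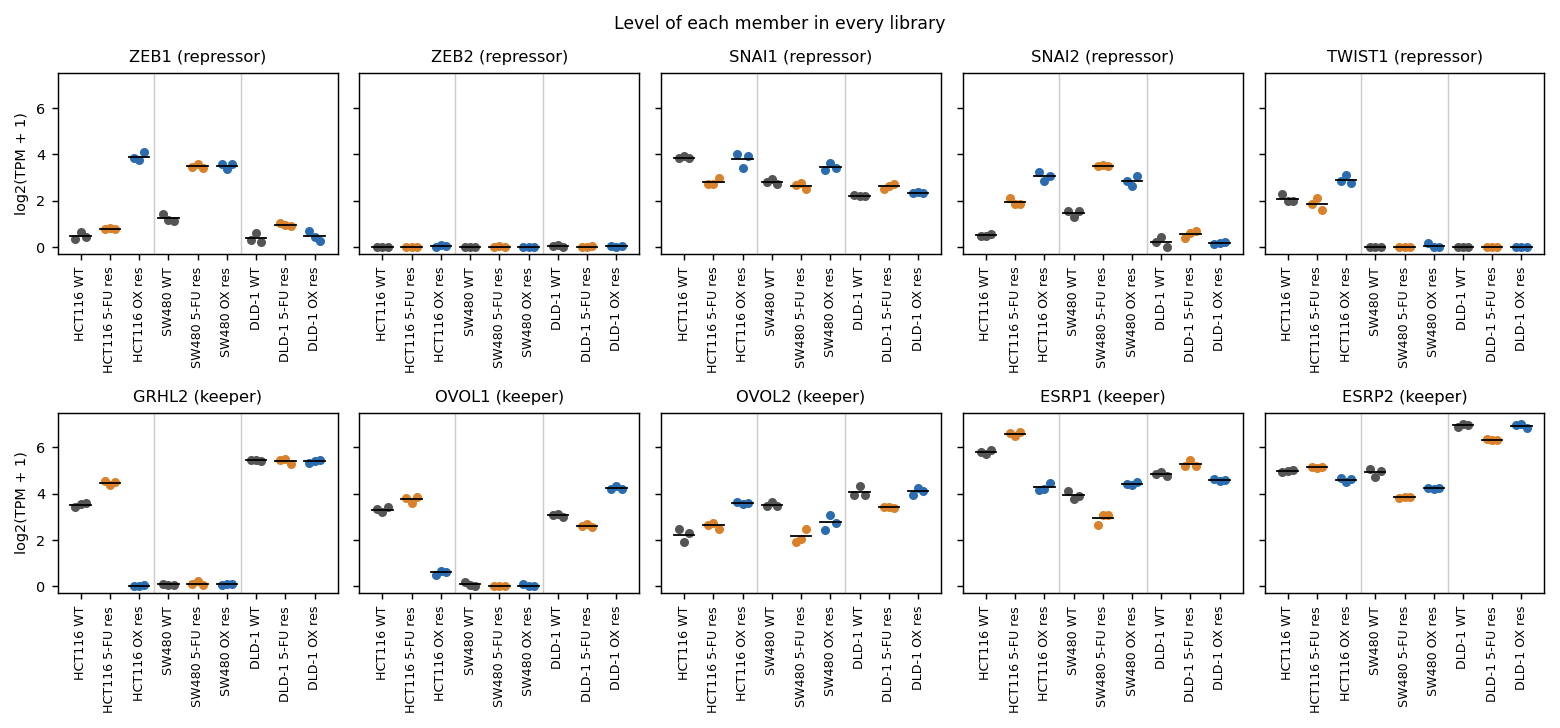
Each panel shows 1 of the 10 genes, with log2(TPM + 1) on the y axis and the 9 groups on the x axis. Points are single libraries (WT grey, 5-FU res orange, OX res blue) and black lines are the means of 3. ZEB1 and SNAI2 stood high in HCT116 OX res and in both resistant SW480 groups, where GRHL2 and OVOL1 lay near 0.

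A gene passed at an adjusted p under 0.05 from limma over all genes tested, those with 1 TPM or more in at least 3 of the line's 9 libraries. Both resistant groups of a line were set against the same 3 WT libraries. Log2 fold changes are differences of mean log2(TPM + 1), and the added 1 makes them too small for genes that are low in a group. In HCT116 cells 9 members could be tested, all but ZEB2. ZEB1 passed the filter only through its OX res libraries, being under 1 TPM in WT and 5-FU res cells. Its place in the counts of both resistant groups thus rests on the group in which it was high. In HCT116 5-FU res cells 8 of the 9 passed, against 74.7% of all genes tested, with 7 higher than in WT cells (47.3% of all genes) and 1 lower (27.5%). In HCT116 OX res cells 8 of the 9 passed, against 86.2% of all genes, 4 higher (68.1%) and 4 lower (18.1%). The share that passed in either direction was thus near that of all genes in OX res and somewhat above it in 5-FU res cells. A log2 fold change beyond 1 in either direction as well was reached by 2 members in 5-FU res (15.4% of all genes) and by 6 in OX res cells (33.3%).

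In SW480 cells 6 members could be tested, since ZEB2, TWIST1, GRHL2 and OVOL1 were too low. In 5-FU res cells 5 of the 6 passed (77.3% of all genes), 2 higher (61.7%) and 3 lower (15.6%), and 4 lay beyond the fold (21.2%). In OX res cells all 6 passed (71.8%), 4 higher (57.4%) and 2 lower (14.5%), and 2 lay beyond the fold (15.0%). In DLD-1 cells 6 members could be tested, with ZEB1, ZEB2, SNAI2 and TWIST1 too low. There 5 passed in 5-FU res (46.4% of all genes), 2 higher (20.5%) and 3 lower (25.9%), with 0 beyond the fold (3.88%). In DLD-1 OX res cells 2 passed (49.8%), 1 higher (38.7%) and 1 lower (11.2%), and OVOL1 was the 1 beyond the fold (3.61%).

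The TPM scale moved all genes together in some comparisons. Against WT, the median log2 fold change over all genes tested was 0.18 for 5-FU res and 0.60 for OX res cells of HCT116, 0.44 and 0.36 for those of SW480, and -0.027 and 0.13 for those of DLD-1. With median-of-ratios scaling, which sets the typical gene near 0, the members past the test were 3 higher and 2 lower for 5-FU res and 3 and 5 for OX res cells of HCT116, and 2 and 4 and then 2 and 2 for those of SW480. In DLD-1 they were 2 higher and 3 lower among 5-FU res and 1 and 3 in OX res cells. Over all genes tested, this scaling turned 6621 higher and 3850 lower into 4993 and 5653 for HCT116 5-FU res, and 9537 and 2534 into 5528 and 5537 for HCT116 OX res. For SW480 it turned 8663 and 2190 into 4820 and 5020 (5-FU res) and 8053 and 2032 into 4597 and 5066 (OX res), and for DLD-1 OX res 5208 and 1504 into 3269 and 2966.

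**Figure D2:**
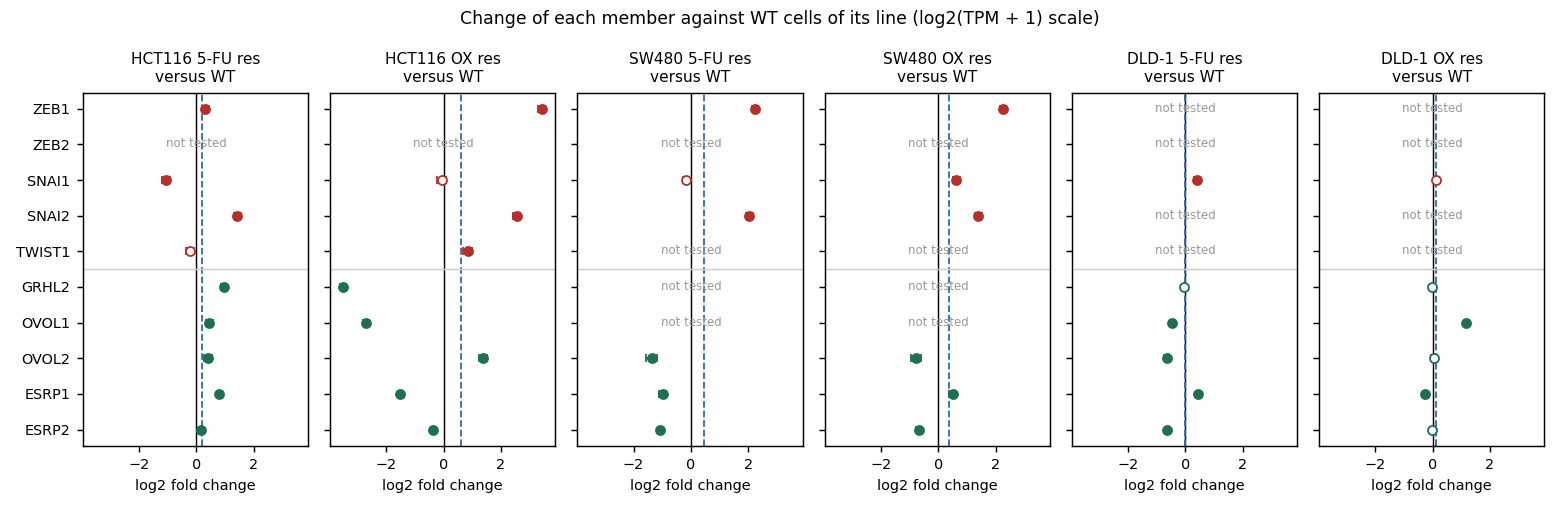
Log2 fold change against WT cells (x axis, log2(TPM + 1) scale) of each member in the 6 resistant groups. Bars are standard errors, filled points passed limma at an adjusted p under 0.05, open points did not, red marks repressors and green keepers. The dashed blue line is the median of all genes tested, 0.60 in HCT116 OX res cells. ZEB1 and SNAI2 lay far to its right in 3 groups, and GRHL2, OVOL1 and ESRP1 far to its left in HCT116 OX res cells.

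ZEB1 is a zinc finger repressor of CDH1 and of many other epithelial genes. Its level was 0.271, 0.576 and 0.362 TPM in the HCT116 WT libraries, 0.718, 0.747 and 0.720 in 5-FU res and 13.3, 12.5 and 16.1 in OX res cells. The OX res libraries stood apart from the other 6, which were all under 1 TPM. The log2 fold change in OX res cells was 3.41 (standard error, SE, of 0.12, adjusted p = 2.2e-10), or 2.82 above the median gene. In 5-FU res cells it was 0.31 (SE 0.12, adjusted p = 0.042) between ranges that did not overlap, and this call was lost in 11 of 13 alternatives (adjusted p of 0.0098 to 0.33 over all 13). Without any 1 of the OX res libraries, or with only the 2 groups compared, ZEB1 fell under the filter and was not tested. In SW480 ZEB1 went from 1.70, 1.27 and 1.21 TPM in WT to 9.88, 11.1 and 9.61 in 5-FU res and 11.1, 9.38 and 10.9 in OX res cells. Both resistant groups lay wholly above WT and overlapped each other. The log2 fold changes were 2.23 and 2.26 (SE 0.11 for each, adjusted p = 3.3e-08 and 8.3e-08), 1.78 and 1.90 above the median gene. In DLD-1 cells ZEB1 was too low to be tested, at 0.224, 0.518 and 0.164 TPM in WT, 1.08, 0.949 and 0.861 in 5-FU res and 0.641, 0.352 and 0.196 in OX res cells, with 5-FU res above both others.

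By mean level the order of ZEB1 ran from HCT116 OX res through SW480 OX res, SW480 5-FU res, SW480 WT, DLD-1 5-FU res, HCT116 5-FU res, HCT116 WT and DLD-1 OX res to DLD-1 WT. The ranges of neighbours overlapped for SW480 OX res and SW480 5-FU res and for the last 3 groups. ZEB1 shares its locus with the antisense gene ZEB1-AS1, which had 1.68 to 2.11 TPM in HCT116 WT, 7.20 to 7.87 in 5-FU res and 5.20 to 7.55 in OX res cells, and 3.24 to 4.07 in SW480 WT, 7.38 to 11.7 in 5-FU res and 5.38 to 7.35 in OX res cells. The library kit marks strand, but whether the counting used it is not stated, and the part of antisense reads in the ZEB1 values was not tested.

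SNAI2 encodes SLUG, a zinc finger repressor of the SNAIL family (GRCh37 chromosome 8, 49830157 to 49834299, minus strand). It was at 0.406, 0.388 and 0.482 TPM in HCT116 WT, 3.29, 2.60 and 2.65 in 5-FU res and 8.37, 6.32 and 7.45 in OX res cells, which are 7 to 9, 37 to 46 and 85 to 109 reads a library. The 3 groups did not overlap, and OX res stood highest. The log2 fold change was 1.43 in 5-FU res (SE 0.12, adjusted p = 6.5e-07) and 2.55 in OX res cells (SE 0.12, adjusted p = 1.9e-09). In SW480 SNAI2 had 1.92, 1.45 and 1.96 TPM in WT, 10.4, 10.5 and 10.2 in 5-FU res and 6.30, 5.29 and 7.49 in OX res cells. Here 5-FU res stood highest, again with no overlap between the groups. The log2 fold changes against WT were 2.04 and 1.40 (SE 0.13 for each, adjusted p = 1.4e-07 and 4.7e-06). In DLD-1 cells SNAI2 was at 0 to 7 reads a library (0 to 0.601 TPM) and could not be tested.

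Over the 9 groups SNAI2 was highest in SW480 5-FU res and followed by HCT116 OX res and SW480 OX res, whose ranges overlapped, then HCT116 5-FU res and SW480 WT. DLD-1 5-FU res and HCT116 WT overlapped each other, as did the last 2, DLD-1 WT and DLD-1 OX res. The direction of both ZEB1 and SNAI2 in HCT116 OX res and in the resistant SW480 cells was the same, and past the test, under FPKM as deposited, median-of-ratios scaling and quantile normalization.

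SNAI1 encodes SNAIL, the founding repressor of the family (chromosome 20, 48599517 to 48605423, plus strand), and it did not follow SNAI2. In HCT116 it had 13.2, 14.1 and 13.4 TPM in WT, 5.68, 5.5 and 6.95 in 5-FU res and 15.3, 9.56 and 14.4 in OX res cells. It fell in 5-FU res cells (log2 fold change -1.05, SE 0.15, adjusted p = 3.7e-05), with no overlap with WT. In OX res cells its range enclosed that of WT (log2 fold change -0.071, adjusted p = 0.66), but with median-of-ratios scaling it was lower (-0.69, adjusted p = 0.00042). In SW480 the values were 6.04, 6.63 and 5.65 TPM in WT, 5.46, 5.83 and 4.63 in 5-FU res and 9.08, 11.3 and 9.76 in OX res cells. SNAI1 rose in SW480 OX res cells by a log2 fold change of 0.63 (adjusted p = 0.00053), a call lost with all 3 other scalings (0.079 to 0.24, adjusted p = 0.091 to 0.59). In SW480 5-FU res the log2 fold change was -0.17 (adjusted p = 0.18), and with median-of-ratios scaling -0.61 (adjusted p = 0.0012). In DLD-1 SNAI1 went from 3.72, 3.55 and 3.60 TPM in WT to 4.72, 5.22 and 5.52 in 5-FU res (log2 fold change 0.41, SE 0.094, adjusted p = 0.0037) and 4.0, 4.18 and 4.02 in OX res cells (0.13, adjusted p = 0.27). HCT116 WT and HCT116 OX res were the 2 highest of the 9 groups and DLD-1 WT the lowest.

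TWIST1, a basic helix-loop-helix factor (chromosome 7, 19060614 to 19157259, minus strand), was found in HCT116 cells and was listed at 0 in 17 of the 18 SW480 and DLD-1 libraries, with 1 read in the other. A count of 0 there allows up to 0.217 to 0.495 TPM a library (3 reads, counting error only). In HCT116 it had 3.83, 2.94 and 2.91 TPM in WT, 2.59, 3.29 and 2.04 in 5-FU res and 6.26, 7.51 and 5.82 in OX res cells. The OX res libraries lay above the other 6, and WT and 5-FU res overlapped. The log2 fold change was 0.83 in OX res cells (SE 0.15, adjusted p = 0.00017), or 0.24 above the median gene, and the call was lost with median-of-ratios scaling (0.29, adjusted p = 0.12) and quantile normalization (0.059, adjusted p = 0.76). In 5-FU res cells the change was -0.22 (adjusted p = 0.18), and it was past the test with the 3 other scalings (-0.34 to -0.61, adjusted p = 0.006 to 0.044). ZEB2, the close relative of ZEB1 (chromosome 2, 145121931 to 145278624, minus strand), had 0 to 3 reads in every library (0 to 0.057 TPM) and was in no comparison.

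GRHL2, the grainyhead-like activator of junction genes (chromosome 8, 102504667 to 102681954, plus strand), had the widest range of the 10 genes on the log2(TPM + 1) scale. In HCT116 it was at 9.81, 10.6 and 11.2 TPM in WT and at 22.3, 19.7 and 21.9 in 5-FU res cells, whereas the OX res libraries were listed at 0, 0 and 0.0314. In reads these were 440 to 542, 789 to 812 and 0 to 1 a library. The WT level was 1061 times that in OX res cells, with a 95% counting interval of 190 to 41953 from 1479 reads against 1. In 5-FU res cells GRHL2 rose by a log2 fold change of 0.95 (SE 0.092, adjusted p = 1.8e-06), 0.77 above the median gene. In OX res cells the fitted log2 fold change on the log2(TPM + 1) scale was -3.51 (SE 0.092, adjusted p = 1.7e-11), a value held back by the pseudocount. In SW480 all 9 libraries had 1 to 5 reads (0.031 to 0.162 TPM), near or under the level of 3 reads, so no difference was detectable at this depth. DLD-1 cells had 42.6, 43.3 and 41.8 TPM in WT, 42.6, 44 and 37.5 in 5-FU res and 39.6, 41.8 and 43.2 in OX res cells. These 3 groups overlapped, with log2 fold changes of -0.044 and -0.037 and SE of 0.064 (adjusted p = 0.60 and 0.66), while the other scalings called OX res lower (-0.17 to -0.20, adjusted p = 0.0081 to 0.016).

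OVOL1, a zinc finger repressor of mesenchymal genes including ZEB1 (chromosome 11, 65554534 to 65564685, plus strand), was high and low in nearly the same groups. It had 9.0, 8.12 and 9.68 TPM in HCT116 WT, 13.2, 11.1 and 13.6 in 5-FU res and 0.418, 0.607 and 0.557 in OX res cells. From 708 reads against 30, the WT level was 16.9 times that in OX res cells (95% counting interval 11.8 to 25.3). The fitted log2 fold change on the log2(TPM + 1) scale, again held back by the pseudocount, was -2.70 (SE 0.11, adjusted p = 4.8e-10). In 5-FU res cells it was 0.45 (SE 0.11, adjusted p = 0.0024), not past the test with median-of-ratios scaling (0.21, adjusted p = 0.058) or quantile normalization (0.072, adjusted p = 0.47). The 9 SW480 libraries had 0 to 4 reads. In DLD-1 OVOL1 moved in opposite directions under the 2 drugs, from 7.54, 7.67 and 7.01 TPM in WT to 5.04, 5.45 and 4.97 in 5-FU res and 17.5, 19.3 and 17.3 in OX res cells. The log2 fold changes were -0.45 and 1.18 (SE 0.079 for each, adjusted p = 0.0006 and 2.8e-07), and DLD-1 OX res had the highest OVOL1 of the 9 groups. The antisense gene OVOL1-AS1 was at 0 to 0.730 TPM in HCT116 and 0 to 2.70 TPM in DLD-1 libraries.

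OVOL2, its relative (chromosome 20, 17937623 to 18039832, minus strand), parted from OVOL1 in HCT116 OX res cells, where it rose. Its values were 4.57, 2.76 and 3.99 TPM in HCT116 WT, 5.34, 5.67 and 4.59 in 5-FU res and 11.3, 10.8 and 11.2 in OX res cells. The OX res libraries lay above all others of the line (log2 fold change 1.36, SE 0.13, adjusted p = 1.2e-06), 0.76 above the median gene. MGME1, on the opposite strand over the same locus, had 40.7 to 46.1 TPM in HCT116 WT and 77.4 to 80.9 in OX res cells, and its part in the OVOL2 values was not tested. SNX5 and SNORD17 overlap OVOL2 on the same strand, and their part in its values was not tested either. In 5-FU res cells the log2 fold change was 0.39 (adjusted p = 0.019), a call lost with FPKM as deposited (0.19, adjusted p = 0.18), median-of-ratios scaling (0.18, adjusted p = 0.26) and quantile normalization (-0.024, adjusted p = 0.88). It was lost as well without HCT116 WT replicate 2 (0.23, adjusted p = 0.09) or 5-FU res replicate 2 (0.34, adjusted p = 0.065). In SW480 OVOL2 fell from 9.93, 11.5 and 10.2 TPM in WT to 2.82, 3.14 and 4.63 in 5-FU res (log2 fold change -1.37, SE 0.18, adjusted p = 4.8e-05) and 4.35, 7.56 and 5.75 in OX res cells (-0.77, adjusted p = 0.0031). Both resistant groups lay below WT, and MGME1 was at 34.7 to 41.7 TPM in WT, 40.8 to 46.2 in 5-FU res and 55.3 to 60.2 in OX res cells. In DLD-1 it had 14.4, 18.8 and 14.4 TPM in WT, 9.86, 9.86 and 9.43 in 5-FU res and 14.3, 18.1 and 16.4 in OX res cells, so that 5-FU res was lower (log2 fold change -0.64, SE 0.11, adjusted p = 0.00044) and OX res overlapped WT (0.038, adjusted p = 0.80).

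ESRP1 (chromosome 8, 95653302 to 95719694, plus strand) and ESRP2 (chromosome 16, 68262936 to 68272005, minus strand), the splicing regulators, stood high in all lines, and one or the other was the most abundant member by TPM in all 9 groups. ESRP1 had 54.8, 50.9 and 57.6 TPM in HCT116 WT, 96.3, 87.6 and 99.6 in 5-FU res and 17.1, 17.3 and 20.7 in OX res cells. The 3 groups did not overlap, with 5-FU res above and OX res below WT. The log2 fold changes were 0.78 (SE 0.080, adjusted p = 2.8e-06) and -1.52 (SE 0.080, adjusted p = 4.3e-09), or 0.60 and -2.12 relative to the median gene. In SW480 it had 16.3, 12.6 and 13.8 TPM in WT, 5.34, 7.42 and 7.45 in 5-FU res and 20.1, 19.4 and 22.0 in OX res cells. It fell in 5-FU res cells (log2 fold change -0.98, SE 0.13, adjusted p = 4.5e-05) and was higher in OX res cells (0.50, SE 0.13, adjusted p = 0.0052), the latter not past the test with the other scalings (0.044 to 0.090, adjusted p = 0.45 to 0.75). In DLD-1 the values were 27.6, 29.8 and 25.8 TPM in WT, 35.6, 42.8 and 35.5 in 5-FU res (log2 fold change 0.43, adjusted p = 0.00075) and 23.5, 22.4 and 22.8 in OX res cells (-0.27, adjusted p = 0.015). Without DLD-1 WT replicate 2 the last of these was not past the test (-0.21, adjusted p = 0.063).

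ESRP2 was far higher in DLD-1 cells than in the others, at 116, 129 and 125 TPM in WT, 80.3, 78.7 and 79.8 in 5-FU res and 123, 128 and 113 in OX res cells. DLD-1 5-FU res cells were below WT (log2 fold change -0.63, SE 0.055, adjusted p = 2.5e-06), and OX res overlapped WT (-0.026, adjusted p = 0.73), while with the other scalings OX res was lower (-0.16 to -0.17, adjusted p = 0.015 to 0.021). In SW480 it fell from 32.6, 25.2 and 30.2 TPM in WT to 12.9, 13.7 and 13.6 in 5-FU res and 18, 17.4 and 18 in OX res cells. The log2 fold changes were -1.07 and -0.68 (SE 0.092 for each, adjusted p = 1.7e-06 and 7e-05), and the groups did not overlap. In HCT116 it was at 29.4, 30.3 and 31.8 TPM in WT, 34.7, 33.6 and 34.6 in 5-FU res and 24.6, 21.8 and 23.8 in OX res cells. The OX res level was lower (-0.37, SE 0.062, adjusted p = 0.00012). The small difference in 5-FU res cells (0.17, adjusted p = 0.028) took the other sign under FPKM as deposited (-0.048) and median-of-ratios scaling (-0.092). It was not past the test there, with quantile normalization, or with any of 4 libraries left out, replicates 1 and 2 of HCT116 WT and replicates 1 and 3 of 5-FU res (0.14 to 0.16, adjusted p = 0.07 to 0.096). NFATC3, which overlaps ESRP2 on the other strand, had 12.4 to 13.9 TPM in HCT116 WT and 16.4 to 21.0 in OX res cells, and 12 to 14.8 in SW480 WT and 19.8 to 26.0 in resistant cells. It was at 19.8 to 21.9 in HCT116 5-FU res cells as well, and its part in the ESRP2 values was not tested.

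CDH1, the common target of the repressors, went from 27.3, 30.1 and 29.6 TPM in HCT116 WT to 22.3, 21.7 and 22.1 in 5-FU res and 3.98, 3.33 and 3.60 in OX res cells (log2 fold change in OX res -2.70, SE 0.076, adjusted p = 3.1e-11). In SW480 it fell from 19.4, 14.2 and 17.1 TPM to 2.85, 3.24 and 3.27 in 5-FU res and 2.47, 3.66 and 2.96 in OX res cells (-2.11 and -2.15, SE 0.14 for each, adjusted p = 2.2e-07 and 5e-07). VIM, which encodes the mesenchymal filament vimentin, rose in HCT116 OX res cells from 3.77, 4.65 and 4.49 to 42.7, 42.8 and 44.1 TPM (3.06, SE 0.094, adjusted p = 5.7e-11). In SW480 VIM was at 631 to 656 TPM in WT, 872 to 891 in 5-FU res and 1117 to 1196 in OX res cells, and its 5-FU res change (0.46) was not past the test with median-of-ratios scaling (-0.052, adjusted p = 0.48). In DLD-1 CDH1 was at 409 to 440 TPM in WT, 354 to 385 in 5-FU res and 340 to 372 in OX res cells (-0.19 and -0.26, adjusted p = 0.0081 and 0.00099). The 3 groups in which ZEB1 and SNAI2 rose by more than 1 on the log2 scale were those in which CDH1 fell by more than 1. In HCT116 5-FU res cells, where SNAI2 rose alone past that fold, CDH1 and VIM were both lower than in WT (-0.38 and -0.55, adjusted p = 0.00068 and 0.00021). Markers of other cell types moved with some of these groups. Fibroblast markers summed to 15.7 to 18.2 TPM in HCT116 OX res against 6.35 to 7.08 in WT cells, nearly all of it COL1A1 (14.9 to 17.6 TPM), with DCN and COL1A2 listed at 0 in all 6 libraries. Leukocyte markers summed to 60.5 to 73.7 TPM against 18.3 to 19.4, mostly CD68 (54.7 to 66.7 TPM), while PTPRC, which defines leukocytes, was at 0 to 0.0666 TPM. In SW480 the leukocyte sum was 8.47 to 9.81 TPM in WT, 29.3 to 32.8 in 5-FU res and 24.5 to 28.6 in OX res cells, with PTPRC at 0 to 0.0342 TPM. The fibroblast sum there was 1.30 to 1.95, 5.39 to 5.89 and 2.53 to 3.31 TPM, with COL1A2 at 0 to 0.151 and DCN at 0 to 0.223 TPM. The part of these markers' cells in the results was not tested.

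The resistant groups of a line were also compared with each other. In HCT116 all 9 members tested differed between 5-FU res and OX res cells (77.1% of all genes), 6 of them beyond the fold (22.5%). All 4 repressors tested were lower in 5-FU res, ZEB1 most (log2 fold change -3.11, SE 0.12, adjusted p = 5.4e-10), and 4 keepers were higher, GRHL2 most (4.46, SE 0.092, adjusted p = 1.9e-12), with OVOL2 lower (-0.97, adjusted p = 3.3e-05). ZEB1 was tested here only through its OX res libraries, so the filter fixed its direction, and its place in these counts is no separate result. In SW480 5 of 6 members differed (61.6%), and 1 lay beyond the fold (11.1%). That was ESRP1, lower in 5-FU res than in OX res cells (-1.49, SE 0.13, adjusted p = 3.6e-06), while ZEB1 did not pass (-0.031, SE 0.11, adjusted p = 0.83) and SNAI2 was higher in 5-FU res (0.64, adjusted p = 0.0013). In DLD-1 5 of 6 differed (62.9%), with OVOL1 alone beyond the fold (8.52%), lower in 5-FU res cells (-1.63, SE 0.079, adjusted p = 6.7e-09). With each library left out the counts in SW480 and DLD-1 were 4 to 5. OVOL2 in SW480 (-0.60, adjusted p = 0.015) was lost without 5-FU res replicate 1 or 2 or OX res replicate 2 (0.051 to 0.065). SNAI1 in DLD-1 (0.28, adjusted p = 0.022) was lost without 5-FU res replicate 2 or 3 or OX res replicate 1 or 3 (0.055 to 0.07).

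WT cells of the 3 lines began from different levels, tested in a fit over all 27 libraries, in which the DLD-1 libraries carry names from a separate number series, so line and any difference between the series cannot be told apart for them. Against HCT116, WT SW480 cells differed in 8 of 9 members (75.1% of all genes), 6 beyond the fold (25.1%). SW480 had more ZEB1 (0.77), SNAI2 (0.96) and OVOL2 (1.29) and less SNAI1 (-1.04) and ESRP1 (-1.87), all with adjusted p of 6.6e-06 or less, while ESRP2 did not pass (-0.061, adjusted p = 0.43). GRHL2 was 178 times higher in HCT116 (95% counting interval 90.1 to 413), OVOL1 136 times (58.2 to 421) and TWIST1 at least 13.5-fold higher, against the level of 3 reads in a library. WT DLD-1 differed from WT HCT116 in 8 of 9 members (79.0%), 5 beyond the fold (34.5%), with more GRHL2 (1.92), OVOL2 (1.83) and ESRP2 (1.98) and less SNAI1 (-1.65) and ESRP1 (-0.95). The count was 6 to 8 with each library left out. The lower SNAI2 (-0.30, adjusted p = 0.029) was lost without HCT116 WT replicate 3 or DLD-1 WT replicate 1 or 3 (0.061 to 0.18). The lower OVOL1 (-0.24, adjusted p = 0.014) was lost without replicate 3 of either WT group (0.059 and 0.08) or with a pseudocount of 0.1 (0.32). TWIST1 was at least 9.44-fold higher in HCT116 than in DLD-1. WT SW480 differed from WT DLD-1 in 8 of 9 members (80.9%), 4 beyond the fold (35.9%). There 3 repressors were higher and all 5 keepers lower in SW480, with GRHL2 719 times (365 to 1667) and OVOL1 113 times (48.0 to 350) higher in DLD-1, and ESRP2 lower in SW480 by 2.04 on the log2 scale. The lower OVOL2 in SW480 (-0.54, adjusted p = 0.0039) was not past the test with the other scalings (-0.063 to 0.045).

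Whether a member answered a drug differently by line was tested as a difference of the 3 responses, with an F test in the same fit. For 5-FU 8 of the 9 members tested passed (84.8% of all genes), all but TWIST1, and for OX all 9 passed (84.1%). Some members were near the floor in a line. TWIST1 had 0 to 1 read a library in SW480 and DLD-1, and GRHL2 and OVOL1 had 0 to 5 in SW480. ZEB1 and SNAI2 were too low in DLD-1 for the fit of that line. For these 5 members the F test in part sets lines with a response against a line that hardly expressed the gene. Both TWIST1 results changed with the scaling: for 5-FU it passed with the 3 others (adjusted p = 0.0015 to 0.039) and without HCT116 5-FU res replicate 2 (adjusted p = 0.034), and for OX it did not pass with the 3 others (adjusted p = 0.055 to 0.94). The ZEB1 response to OX was smaller in SW480 than in HCT116 by 1.15 (SE 0.18) and in DLD-1 by 3.31 (0.18) on the log2 scale, and the response to 5-FU was larger in SW480 than in HCT116 by 1.92 (0.18). ESRP1 under 5-FU was lower in SW480 than in HCT116 by 1.77 (SE 0.15), its response being up in HCT116 and DLD-1 and down in SW480.

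To set the repressors against the keepers, the mean log2(TPM + 1) of the 5 repressors was subtracted from that of the 5 keepers in each library, as a description with no test. The difference was 2.61, 2.46 and 2.68 in HCT116 WT, 3.07, 2.97 and 3.09 in 5-FU res and -0.20, -0.046 and -0.11 in OX res cells. In SW480 it was 1.43, 1.36 and 1.39 in WT, -0.23, -0.14 and 0.020 in 5-FU res and 0.25, 0.42 and 0.31 in OX res cells. In DLD-1 it was 4.28, 4.31 and 4.33 in WT, 3.81, 3.84 and 3.69 in 5-FU res and 4.37, 4.52 and 4.46 in OX res cells. In 4 of the 6 resistant groups all 3 libraries lay below those of WT, and in HCT116 5-FU res and DLD-1 OX res cells they lay above. HCT116 OX res and SW480 5-FU res were the 2 groups in which the mean log2(TPM + 1) of the repressors reached that of the keepers. By summed TPM the keepers were still higher in HCT116 OX res cells (50.5 to 56.3 against 35.9 to 43.8), and in SW480 5-FU res the sums overlapped (21.2 to 25.7 against 24.4 to 27.4). They came there by different members: in HCT116 OX res the keepers were OVOL2, ESRP1 and ESRP2 with GRHL2 and OVOL1 near 0, and TWIST1 added to the repressors, whereas in SW480 5-FU res GRHL2 and OVOL1 had been near 0 in WT cells already.

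**Figure D3:**
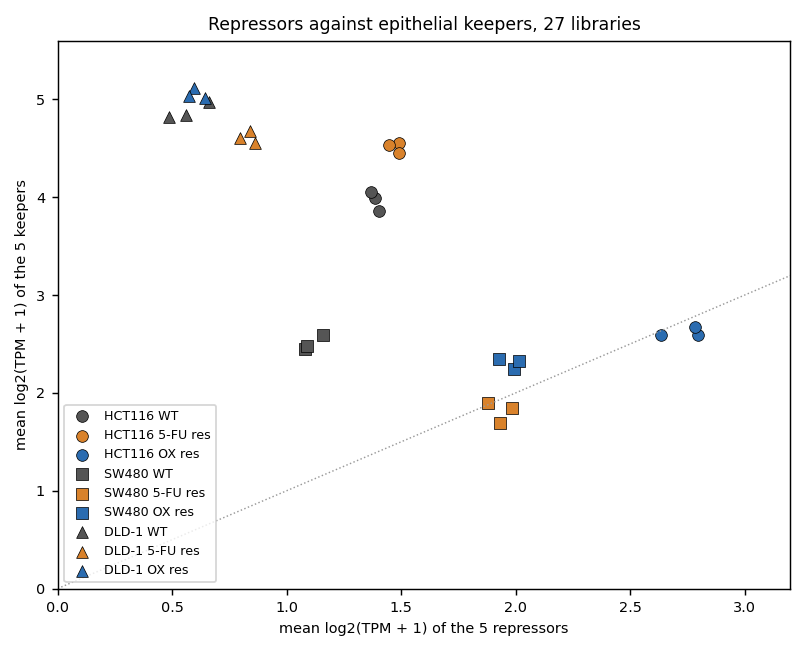
Mean log2(TPM + 1) of the 5 repressors (x axis) against that of the 5 keepers (y axis), 1 point for each of the 27 libraries. Circles are HCT116, squares SW480 and triangles DLD-1, WT in grey, 5-FU res in orange and OX res in blue, and the dotted line marks equal means. The HCT116 OX res and SW480 5-FU res libraries lie at the line, with differences of -0.23 to 0.020, and the DLD-1 libraries lie farthest above it, at 3.69 to 4.52.

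Genes that act with the members were followed as lists, each given by its counts past the test and its median log2 fold change beside that of all genes tested. The shares of all genes called higher and lower in each group, given above, are the background of these counts. Among 30 epithelial genes that the repressors are known to turn off, 5 were higher and 22 lower in HCT116 OX res cells, with a median of -0.95 against 0.60 for all genes, or 1 and 28 with median-of-ratios scaling. In HCT116 5-FU res cells 15 were higher and 7 lower (median 0.23 against 0.18), a split that turned to 6 and 14 with median-of-ratios scaling. In SW480, 28 could be tested, with 7 higher and 13 lower among 5-FU res cells (median -0.17 against 0.44) and likewise 7 and 13 in OX res cells (-0.26 against 0.36), or 3 and 21 and 2 and 22 with median-of-ratios scaling. In DLD-1, 4 were higher and 15 lower among 5-FU res (-0.13 against -0.027) and 17 higher and 6 lower among OX res cells (0.19 against 0.13), the latter 13 and 8 with median-of-ratios scaling. RAB25, a small GTPase of epithelial membrane traffic, had 157 ± 2.81 TPM (SD, n = 3) in WT and 0.443 ± 0.214 in OX res cells of HCT116 (log2 fold change -6.78, SE 0.088, adjusted p = 1.4e-13). MAL2, a membrane protein of apical transport, had the largest change of the list in SW480, from 58.2 ± 7.85 to 10.2 ± 1.35 TPM in 5-FU res cells (-2.39, SE 0.11, adjusted p = 1.8e-08). WT cells parted in the same list, with 1 higher and 26 lower of 30 in SW480 against DLD-1 (median -1.72 against -0.32), or 4 and 24 with median-of-ratios scaling. Of all genes 80.9% passed in either direction in this WT comparison, and their shares by direction are not given.

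Of 24 mesenchymal genes, 10 could be tested in HCT116, 14 in SW480 and 9 in DLD-1, and the others were too low. In HCT116 OX res cells 8 were higher and 1 lower (median 1.17 against 0.60), and in 5-FU res cells 3 were higher and 5 lower (-0.088 against 0.18). In SW480, 11 were higher and 2 lower among 5-FU res (0.84 against 0.44) and 8 and 1 in OX res cells (0.35 against 0.36), or 8 and 3 and 6 and 4 with median-of-ratios scaling. In DLD-1, 3 were higher and 2 lower under either drug, or 3 and 1 in 5-FU res with median-of-ratios scaling. CDH11, a mesenchymal cadherin, was at 0.127 ± 0.0745 TPM in WT and 32.0 ± 1.97 in 5-FU res cells of SW480 (4.87, SE 0.10, adjusted p = 8.7e-11). In OX res cells CDH11 was at 0.673 ± 0.0591 TPM, so it passed the filter only through 5-FU res. Its call and its place in the SW480 list counts thus rest on the group in which it was high. TGFBI, a TGF-β-induced matrix protein, went from 129 ± 3.92 to 444 ± 19.2 TPM in DLD-1 5-FU res cells (1.77, SE 0.045, adjusted p = 9.6e-11), where ZEB1 was at 0.861 to 1.08 TPM, and was lower in OX res cells (103 ± 2.11 TPM, -0.33, adjusted p = 8.5e-05).

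The list of 18 inducers held ligands, receptors and mediators of the TGF-β, NOTCH, WNT and growth factor pathways that are known to raise the repressors. In HCT116, 12 of 14 tested were higher and 0 lower among 5-FU res (median 0.93 against 0.18) and 12 higher and 1 lower among OX res cells (0.87 against 0.60), the latter 8 and 5 with median-of-ratios scaling. In SW480, 11 of 15 were higher and 0 lower among 5-FU res (0.92 against 0.44) and 14 and 0 in OX res cells (0.83 against 0.36), or 8 and 2 and 11 and 1 with median-of-ratios scaling. In DLD-1, 7 of 16 were higher and 4 lower among 5-FU res (0.082 against -0.027) and 11 and 1 in OX res cells (0.30 against 0.13), the latter 9 and 3 with median-of-ratios scaling. MET, the receptor of hepatocyte growth factor, moved in opposite directions in HCT116, from 76.8 ± 4.18 TPM in WT to 176 ± 11.9 in 5-FU res (1.19, adjusted p = 1.7e-08) and 10.0 ± 0.414 in OX res cells (-2.82, adjusted p = 6.3e-12). WNT5A, a non-canonical WNT ligand, had the largest change in SW480, from 45.0 ± 9.81 to 200.2 ± 9.91 TPM in 5-FU res cells (2.15, adjusted p = 1.2e-07). TGFB2, the gene of the ligand TGF-β2, had it in DLD-1, from 4.13 ± 0.231 to 30.8 ± 1.75 TPM in OX res cells (2.63, adjusted p = 2.9e-10).

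Among 22 other EMT-associated transcription factors, those past the test in HCT116 were 6 higher and 3 lower of 14 for 5-FU res and 10 and 2 for OX res. In SW480 they were 11 and 2 of 16 and then 12 and 2, and in DLD-1 10 and 1 of 16 and then 10 and 4. Median-of-ratios scaling gave 5 and 6, 6 and 4, 7 and 6 and 9 and 5 in HCT116 and SW480, in that order, and the same counts as before in DLD-1. The medians for 5-FU res and OX res were 0.074 against 0.18 for all genes and 0.80 against 0.60 in HCT116, 0.46 against 0.44 and 0.83 against 0.36 in SW480, and 0.49 against -0.027 and 0.36 against 0.13 in DLD-1. ETS1 rose in HCT116 from 2.66 ± 0.142 to 12.2 ± 0.776 TPM in 5-FU res (1.85, adjusted p = 5.6e-09) and 25 ± 1.97 in OX res cells (2.83, adjusted p = 5.2e-11). SOX4, a mediator of TGF-β responses, rose in SW480 from 7.69 ± 0.804 to 89.8 ± 4.79 TPM in 5-FU res (3.39, adjusted p = 1.5e-10) and 63.4 ± 0.941 in OX res cells (2.89, adjusted p = 1.3e-09). HMGA2, a chromatin protein that binds the SNAI1 promoter, rose in DLD-1 5-FU res cells from 9.71 ± 0.704 to 28.1 ± 0.960 TPM (1.44, adjusted p = 4.1e-08) and was lower in OX res cells (7.02 ± 0.549 TPM, -0.42, adjusted p = 0.00089).

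Among 20 other epithelial transcription factors, those past the test in HCT116 were 6 higher and 2 lower of 13 for 5-FU res and 6 and 5 for OX res. In SW480 they were 7 and 3 of 11 and then 5 and 2, and in DLD-1 3 and 9 of 16 and then 6 and 6. With median-of-ratios scaling the counts in HCT116 were 4 and 6 and 2 and 6, and in SW480 OX res 4 and 4. The medians for 5-FU res and OX res were -0.080 against 0.18 and 0.28 against 0.60 in HCT116, 0.90 against 0.44 and 0.31 against 0.36 in SW480, and -0.25 against -0.027 and 0.041 against 0.13 in DLD-1. The gene of this list with the largest change in each line rose. EHF, an ETS factor of epithelia, was at 2.46 ± 0.713 TPM in WT and 87.9 ± 6.01 in 5-FU res cells of SW480 (4.70, SE 0.13, adjusted p = 5.3e-10). KLF4, a factor of differentiating colon epithelium, was at 11.8 ± 0.216 TPM in WT and 91.8 ± 6.76 in OX res cells of HCT116 (2.85, SE 0.085, adjusted p = 4.5e-11). ELF5 went from 0.218 ± 0.127 to 2.69 ± 0.0843 TPM in DLD-1 OX res cells (1.61, SE 0.15, adjusted p = 4.5e-06). In 5-FU res cells ELF5 was at 0.0532 ± 0.0471 TPM, so it passed the filter only through OX res. Its call and its place in the list counts thus rest on the group in which it was high.

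Other splicing regulators of the EMT were followed in a list of 20. Of 16 tested in each line, 9 were higher and 6 lower for 5-FU res and 7 and 9 for OX res in HCT116, then 5 and 6 and 9 and 2 in SW480 and 3 and 6 and 8 and 2 in DLD-1, with 0 to 4 beyond the fold. The medians were 0.39 against 0.18 and -0.14 against 0.60 in HCT116, 0.021 against 0.44 and 0.25 against 0.36 in SW480, and -0.043 against -0.027 and 0.16 against 0.13 in DLD-1. With median-of-ratios scaling the OX res counts were 4 and 10 in HCT116, 6 and 7 in SW480 and 5 and 4 in DLD-1, and the 5-FU res counts 4 and 11 in SW480 and 5 and 6 in DLD-1. RBM24, an RNA-binding protein of muscle splicing, rose in HCT116 OX res cells from 3.04 ± 0.710 to 16.4 ± 1.80 TPM (2.11, adjusted p = 2.8e-08) and was lower in 5-FU res cells (1.90 ± 0.248 TPM, -0.47, adjusted p = 0.0088). MBNL2, a muscleblind splicing factor, had the largest change in both SW480 and DLD-1, rising from 6.26 ± 1.25 to 19.7 ± 2.45 TPM in SW480 5-FU res (1.52, adjusted p = 2.6e-06) and from 19.8 ± 1.0 to 37.4 ± 3.27 TPM in DLD-1 5-FU res cells (0.88, adjusted p = 3.4e-06). The 18 co-repressors and chromatin partners of the repressors gave 9 higher and 7 lower for 5-FU res and 10 and 7 for OX res in HCT116, 12 and 2 and then 11 and 3 in SW480, and, with 17 tested, 3 and 6 and then 11 and 0 in DLD-1. Their medians were 0.12 against 0.18 and 0.31 against 0.60 in HCT116, 0.24 against 0.44 and 0.34 against 0.36 in SW480, and -0.056 against -0.027 and 0.15 against 0.13 in DLD-1. With median-of-ratios scaling HCT116 had 4 and 9 and then 3 and 11, SW480 5 and 11 and then 6 and 8, and DLD-1 3 and 6 and then 5 and 5. LOXL2, a lysyl oxidase-like partner of SNAI1, rose in HCT116 OX res cells from 30.8 ± 0.777 to 124 ± 11.9 TPM (1.97, adjusted p = 1.9e-10) and was lower in 5-FU res cells (26.1 ± 1.40 TPM, -0.23, adjusted p = 0.011). BMI1, a Polycomb protein, had the largest change in SW480 (9.04 ± 1.57 to 28.2 ± 6.74 TPM in 5-FU res, 1.53, adjusted p = 0.00012) and in DLD-1 (28.3 ± 3.29 to 93.2 ± 5.72 TPM in 5-FU res, 1.69, adjusted p = 3.6e-07), and its reads can be shared with the COMMD3-BMI1 read-through gene.

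**Figure D4:**
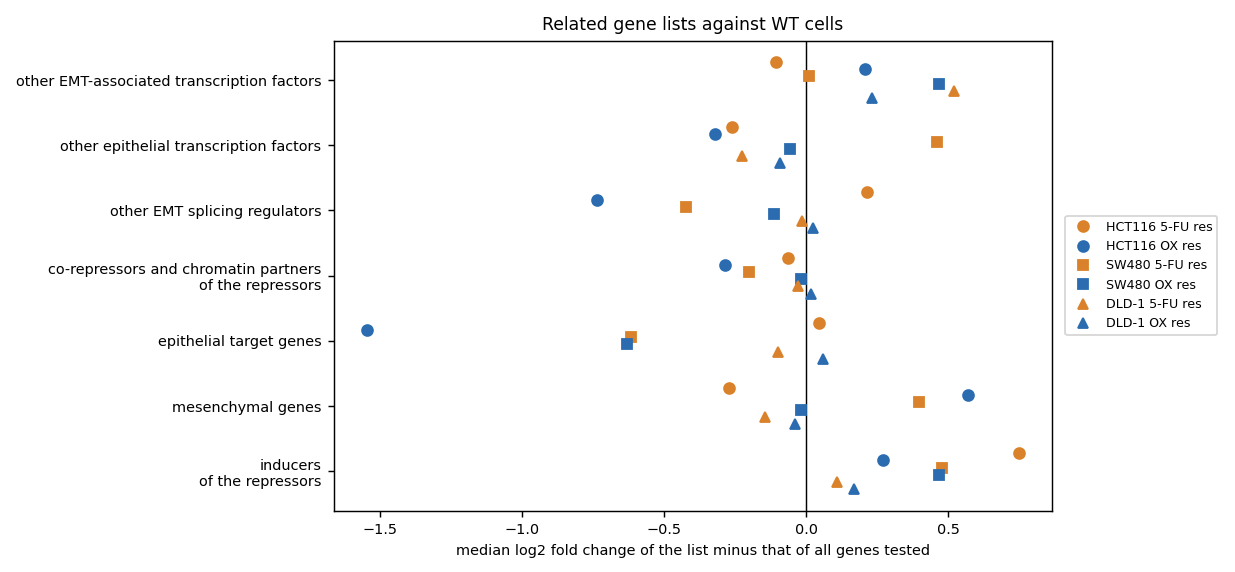
Median log2 fold change against WT of each related gene list minus the median of all genes tested (x axis), for the 6 resistant groups. Circles are HCT116, squares SW480 and triangles DLD-1, with 5-FU res in orange and OX res in blue. Epithelial target genes lay left of 0 in HCT116 OX res cells, with a median of -0.95 against 0.60, and in both SW480 resistant groups. They lay slightly left of 0 in DLD-1 5-FU res cells (-0.13 against -0.027). The inducers lay right of 0 in all 6.

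The members were also compared by the pattern of their 9 group means, as a description, since the 9 points come from only 3 lines. ZEB1 ran with SNAI2 (Pearson r = 0.92) and against GRHL2 (-0.83), OVOL1 (-0.82) and ESRP2 (-0.76), and its r with SNAI1 was 0.46 and with TWIST1 0.17. ESRP1 ran with OVOL1 (0.74) and GRHL2 (0.65) and against ZEB1 (-0.61), and hardly with OVOL2 (-0.070). Among 15801 genes the patterns most like that of ZEB1 were those of SH2B3 (r = 0.985), DACT1 (0.981), HM13 (0.979), TSLP (0.977) and ZNF815P (0.974). Those most like ESRP1 were EIF3H (0.986), PABPC1 (0.978), SLC25A32 (0.946), RPS12 (0.941) and FERMT3 (0.937).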

How the data were processed

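FPKM of 27 mRNA-seq libraries (stranded TruSeq kit, DNBSEQ-G400) were used as deposited. The authors used Trimmomatic 0.38 for trimming and TopHat2 2.1.1 for alignment to hg19, and computed FPKM with Cufflinks 2.2.1 (methods) or Cuffdiff 2.2.1 (submitters' processing notes). Python 3.11.15 with numpy 2.4.6, pandas 2.3.3 and matplotlib 3.10.9, and limma 3.58.1 under R 4.3.3 served here. TPM were FPKM divided by the library sum, and tests were run on log2(TPM + 1), which understates changes of low genes. For each line the 9 libraries were fitted with limma (lmFit, then eBayes with a trend), and over all 27 for WT lines and F tests, 2-sided, with Benjamini-Hochberg adjustment over all genes tested. Reads could be recovered for low genes only, so the depth limits calls of members under 1 TPM. The fits were tested on simulated data. The members and lists were chosen with earlier results of these data known. Named are all members, CDH1, VIM, the gene of each list with the largest change per line, and the 5 genes most like ZEB1 and ESRP1. Some of these genes are not reported here. Alternatives were a pseudocount of 0.1, no filter, a floor of 5 on the mean TPM, median-of-ratios scaling, FPKM as deposited, quantile normalization, a replicate block, the 2 groups alone and each library left out.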

Additional observations from a re-analysis of the deposited data

Results flagged for a closer look

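Responses to a drug that differed between the 3 lines are given here with the adjusted p of the limma F test over all 27 libraries. For 5-FU these were ZEB1 (1.7e-09), SNAI1 (2.8e-07), SNAI2 (2.7e-08), GRHL2 (6.3e-09), OVOL1 (1.8e-06), OVOL2 (1.1e-06), ESRP1 (6.7e-10) and ESRP2 (3.4e-10), where 84.8% of all genes passed. The signs of the response also differed: SNAI1 fell in HCT116 (-1.05) and rose in DLD-1 (0.41), and ESRP1 rose in HCT116 (0.78) and DLD-1 (0.43) and fell in SW480 (-0.98). For OX these were ZEB1 (3.7e-13), SNAI1 (0.0021), SNAI2 (2.6e-11), TWIST1 (2e-05), GRHL2 (1.3e-18), OVOL1 (2.5e-17), OVOL2 (6e-08), ESRP1 (1.5e-10) and ESRP2 (8.1e-06), where 84.1% passed. TWIST1 under OX was not past the test with FPKM as deposited (0.055), median-of-ratios scaling (0.081) or quantile normalization (0.94). OVOL1 fell in HCT116 (-2.70) and rose in DLD-1 (1.18), and OVOL2 rose in HCT116 (1.36) and fell in SW480 (-0.77). GRHL2 and OVOL1 were near 0 in SW480 WT cells, and TWIST1 at 0 in SW480 and DLD-1 WT cells, so a further fall there was not detectable. ZEB1 and SNAI2 were too low in DLD-1 to be tested within that line. Groups of 3 libraries are too small for a test of single outlying libraries.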

How the results depend on the processing

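Of the members' tests, 108 in all, the alternatives left 2490 of their values on the same side of the threshold, 49 lost the call, 21 gained one and 7 changed sign. Signs were compared only where the main or the alternative value passed, and the F tests have no sign. The number of members past the test in HCT116 5-FU res cells was 8 and fell to 5 with median-of-ratios scaling and to 5 with quantile normalization. In DLD-1 OX res cells it was 2 and rose to 4 with FPKM as deposited, 4 with median-of-ratios scaling and 4 with quantile normalization, and was 1 to 2 with each library left out, 1 without DLD-1 WT replicate 2. In WT SW480 against WT HCT116 it was 8, and 5 with a mean TPM of 5 or more, which removes members from the fit. Beyond the fold it went from 2 to 1 in HCT116 5-FU res with that filter, from 2 to 4 in SW480 OX res with median-of-ratios scaling and from 1 to 0 in DLD-1 OX res cells with FPKM as deposited. Changes of sign, here with VIM included, were OVOL2 in HCT116 5-FU res (-0.024, quantile), ESRP2 there (-0.048, FPKM, and -0.092, median-of-ratios), VIM in SW480 5-FU res (-0.052, median-of-ratios), GRHL2 in DLD-1 5-FU res against OX res (0.15, 0.15 and 0.17 with FPKM, median-of-ratios and quantile) and OVOL2 in WT SW480 against WT DLD-1 (0.045, quantile), all small. The cause of these shifts was not tested. The keeper minus repressor difference was below WT in 4 of 6 resistant groups with a pseudocount of 0.1, FPKM as deposited, median-of-ratios scaling and quantile normalization. With a z-score of each member it was below WT in 3. The filters and the block were not run for this difference. A left-out library could not change the count of 4, since each group lay wholly below or wholly above WT. The replicate block lost 1 call, ZEB1 in HCT116 5-FU res (adjusted p = 0.05, members past the test 7), and no other of the members. Deviations of same-numbered pairs correlated at -0.20 to 0.22, with 5 of 27 pairs over 0.1. Pairs with unlike numbers were not compared, so whether equal numbers mark related libraries was not tested. Among the lists, mesenchymal genes past the test in HCT116 OX res went from 9 to 14 with no filter, other epithelial transcription factors there from 11 to 7 with a mean TPM of 5 or more, splicing regulators in SW480 OX res from 11 to 7 with quantile normalization, mesenchymal genes in both DLD-1 groups from 5 to 3 with a mean TPM of 5 or more (in 5-FU res also to 3 without 5-FU res replicate 2 or 3 or OX res replicate 3), and co-repressors in DLD-1 OX res from 11 to 6 or 7 without DLD-1 WT replicate 1 or 3 or OX res replicate 1 or 2.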

Other observations

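ESRP1 and GRHL2 lie on the long arm of chromosome 8, at 95653302 to 95719694 and 102504667 to 102681954 (GRCh37). The 3 genes whose group pattern was most like that of ESRP1, EIF3H (117654369 to 117779164), PABPC1 (101698044 to 101735037) and SLC25A32 (104410863 to 104427417), lie on that arm as well. The genes within 10 Mb of each member were then looked at, a choice made after this was seen, and are described with no test. The windows of ESRP1 and GRHL2 overlap, so the medians of their neighbours share genes and are not separate values. In HCT116 OX res cells the 62 genes around ESRP1 had a median log2 fold change of 0.097 and the 54 around GRHL2 one of 0.13, against 0.60 for all genes tested, while ESRP1 itself was at -1.52. SNAI2, also on this arm (49830157 to 49834299), was at 2.55 there, and the 39 genes around it had a median of 0.77. In HCT116 5-FU res cells the neighbours of ESRP1 and GRHL2 had medians of 0.43 and 0.36 against 0.18, and ESRP1 was at 0.78 and GRHL2 at 0.95. Around SNAI1 and OVOL2 on chromosome 20, 111 and 49 genes had medians of 1.22 and 1.21 in HCT116 OX res cells, and OVOL2 was at 1.36 and SNAI1 at -0.071. In SW480 the 60 genes around ESRP1 had a median of 0.31 in 5-FU res (0.44 for all genes) and 0.50 in OX res cells (0.36), where ESRP1 was at -0.98 and 0.50. In DLD-1 the medians around the 10 members lay between -0.099 and 0.22.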
